A study of Mus musculus with 6 samples.

Results

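Annexins are proteins that bind acidic phospholipids at the inner face of membranes when calcium rises. A conserved core of repeats carries the calcium sites, and a variable N-terminal tail sets the partners of each member, among them small S100 proteins. They are known for work at membranes: repair of the plasma membrane, vesicle fusion and transport, plasmin formation at the cell surface, and control of inflammation. In lung, alveolar and airway epithelium, endothelium, fibroblasts and leukocytes all express members, so the family was followed here in sorted cells of a neuroendocrine lung tumour.

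The annexins described were those of the list Anxa1 to Anxa9 and Anxa11. A member was taken from every probe set whose annotation named that symbol alone, which gave 9 of 10 members on 20 probe sets, out of 18193 genes and 45037 probe sets measured. Anxa11, known to link RNA granules to lysosomes, appeared only on 1 probe set annotated with 2 further symbols and was not analysed here.

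The samples came from mice with small cell lung cancer driven by combined loss of Rb, p53 and p130, on a mixed C57BL/6;129Sv/J background. Tumours were taken 6 to 7 months after infection with Adeno-Cre, the animals received no other treatment, and which cells the virus reached was not analysed here. Staining for CD24, CD44 and EpCAM on dissociated tumours separated tumour-propagating cells (TPCs) from non-TPCs, by gates not given in the sources used here. From each of mice 1127, 920 and 0107, 1 array of TPCs and 1 of non-TPCs was measured, so both fractions shared genotype, strain and animal. The comparison asks which annexins set TPCs apart from the other sorted cells of the same tumour and which were present at like levels in both.

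The labels name a whole-transcript labelling kit, while the probe annotation belongs to an array with probes near the 3′ end, and the sources used here do not say how the kit and array were combined. Signals are given on a log2 scale, on which a difference of 1 is a 2-fold change, and every difference is TPC minus non-TPC. Over all genes the median level was 6.91 and the median difference 0.04. Both fractions carried the neuroendocrine genes that define the tumour cells: 6 of 8 listed markers were measured, all above the median level, and their mean signal per array was 10.41 to 10.79 in TPCs and 9.99 to 10.36 in non-TPCs. Markers of other lung cells were lower in TPCs of 3 of 3 mice for 5 of 7 fibroblast, 4 of 6 alveolar type 1, 5 of 6 macrophage and 3 of 4 neutrophil genes, with 1 further neutrophil marker not analysed here. The same held for 4 of 4 club cell, 4 of 5 alveolar type 2, 3 of 4 mesothelial, 3 of 6 endothelial and 3 of 5 general leukocyte genes, against 0 of 4 T and NK cell, 1 of 3 measured B cell and 1 of 3 ciliated cell genes, where 13.8% of all genes were lower in 3 of 3 mice. The mean of 7 fibroblast markers was 5.64 to 5.86 in TPCs and 7.00 to 9.33 in non-TPCs, that of 6 alveolar type 1 markers 6.37 to 6.53 in TPCs and 7.26 to 8.16 in non-TPCs, that of 6 macrophage markers 6.12 to 6.67 in TPCs and 7.04 to 7.63 in non-TPCs, and that of 4 neutrophil markers 5.30 to 5.67 in TPCs and 6.94 to 7.77 in non-TPCs. The fibroblast, alveolar type 1, macrophage and neutrophil lists lay in the same direction as the lower annexins below. So did the club cell, alveolar type 2, mesothelial, endothelial and general leukocyte lists. The part of all these lists in the annexin values was not tested. The marker lists were chosen with earlier results of these data known, so their counts are a description. In sorted populations measured in bulk, fewer cells of a type and less RNA per cell cannot be told apart.

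Promoter sequences are shown for 3 members with unlike directions in these samples. By their brightest probe sets, Anxa2 and Anxa1 were lower in TPCs of every mouse, while the direction of Anxa5 differed between mice. Each is the stretch of 250 bases directly before the annotated start in RefSeq (build GRCm38.p6), read 5′ to 3′ on the gene's own strand, and capitals mark matches to TATAAA, the letters of a TATA box, or to TGANTCA, the letters bound by AP-1 factors, searched on both strands. The windows are chr9:69453433-69453682 on the plus strand for Anxa2, chr19:20390672-20390921 on the minus strand for Anxa1 and chr3:36475888-36476137 on the minus strand for Anxa5.
Anxa2: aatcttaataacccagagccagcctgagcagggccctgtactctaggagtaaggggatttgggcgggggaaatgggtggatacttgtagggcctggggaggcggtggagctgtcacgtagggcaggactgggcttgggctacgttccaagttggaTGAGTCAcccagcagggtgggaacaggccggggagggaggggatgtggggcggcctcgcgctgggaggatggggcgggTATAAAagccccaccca
Anxa1: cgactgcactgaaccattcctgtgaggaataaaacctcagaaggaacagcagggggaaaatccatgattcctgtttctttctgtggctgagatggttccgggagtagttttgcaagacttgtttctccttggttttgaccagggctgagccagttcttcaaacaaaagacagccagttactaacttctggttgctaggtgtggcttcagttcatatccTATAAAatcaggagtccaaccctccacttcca
Anxa5: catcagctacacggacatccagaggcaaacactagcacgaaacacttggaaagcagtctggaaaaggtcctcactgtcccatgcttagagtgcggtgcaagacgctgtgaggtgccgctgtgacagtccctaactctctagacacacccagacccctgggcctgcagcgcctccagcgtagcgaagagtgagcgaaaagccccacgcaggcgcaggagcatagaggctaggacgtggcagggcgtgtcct

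A TATAAA match began 17 bases before the start in Anxa2 and 32 bases before it in Anxa1, and a TGANTCA match began 95 bases before the start in Anxa2. RefSeq windows were found for 7 of the 9 measured members, 10 windows in all. TATAAA occurred in 2 of those 10 windows, the pair above, and in 12.3% of 32536 windows of the same length. TGANTCA occurred in 1 of the 10 and in 6.73% of the 32536. Anxa8 and Anxa9, also lower in TPCs of every mouse, had windows with neither match, and no window was found for Anxa3. GGGCGG and CCAAT were searched too. They occurred in 3 and 0 of the 10 windows, and in 33.0% and 33.8% of the 32536. Both Anxa7 windows were among the 3 with GGGCGG, and they overlap and share 1 such match. The matches describe letters only, and binding was not measured.

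No annexin passed the test with fraction as the single term, and Anxa2 passed once the mouse was taken into account. With limma, which sets the difference against the spread between mice, 0 of 9 members had an adjusted p under 0.05, where 0.0605% of all genes were called lower and none higher in TPCs. At an unadjusted p under 0.05 there were 4 members, Anxa1, Anxa2, Anxa3 and Anxa8, all lower in TPCs, beside 4.35% of all genes lower and 2.12% higher. Once the mouse entered as a replicate block, 1 of 9 members passed, Anxa2, against 0.0715% of all genes. The median difference of the 9 members was -0.63, beside 0.04 for all genes. The members were chosen with earlier results of these data known, so their counts beside all genes are a description. In 5 of 9 members TPCs were lower in 3 of 3 mice, as in 13.8% of all genes, and in 0 of 9 they were higher in 3 of 3 mice, as in 19.7% of all genes. All 3 TPC arrays lay below all 3 non-TPC arrays for Anxa2, Anxa3 and Anxa8, a pattern found in 5.91% of all genes, and above them for no member, against 6.71% of all genes.

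**Figure D1:**
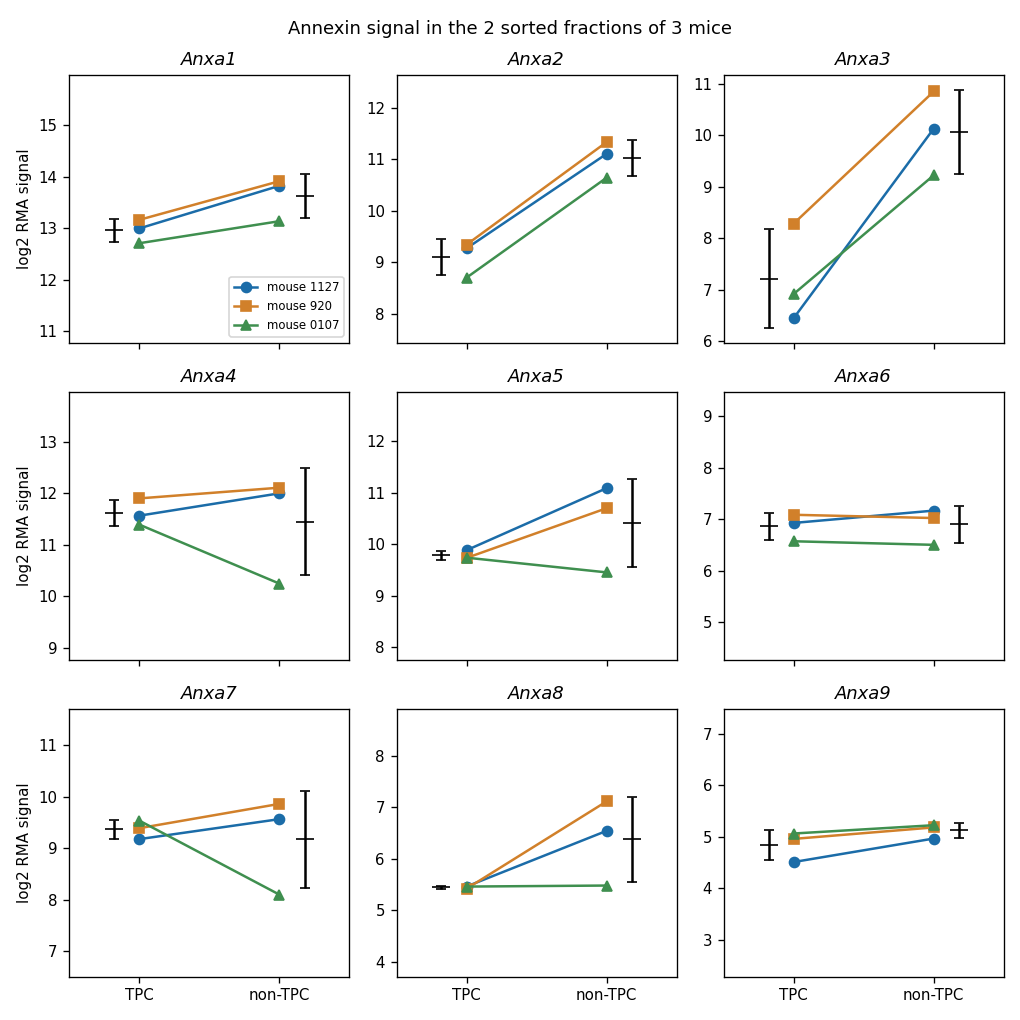
Log2 RMA signal (vertical axis, each panel spanning the same range of units) of 9 annexins in TPCs (left) and non-TPCs (right); coloured points joined by lines are the 3 mice, and black bars show the mean and SD of each fraction. The lines of Anxa2 and Anxa3 run upwards to non-TPCs in every mouse, while those of Anxa4, Anxa5 and Anxa7 run downwards in mouse 0107 alone.

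Anxa2 forms a complex with S100A10 at the plasma membrane, where it is known to bind plasminogen and its activator and to anchor actin. Its signal was 9.27, 9.34 and 8.70 in TPCs of mice 1127, 920 and 0107, against 11.11, 11.34 and 10.64 in non-TPCs of the same mice. The groups were well apart, with the highest TPC array 1.30 below the lowest non-TPC array. Within mice the difference was -1.83, -1.99 and -1.94, so the 3 animals gave almost the same value. TPCs averaged 9.11 ± 0.35, against 11.03 ± 0.35 for non-TPCs (SD, n = 3 each), a 3.79-fold lower signal in TPCs. The difference was -1.92 (SE 0.25, 95% interval -2.52 to -1.33, limma adjusted p = 0.105). Under the replicate block the SE was 0.13 and Anxa2 fell past the threshold (95% interval -2.25 to -1.60, limma adjusted p = 0.0333). A random block for the mouse called it too (limma adjusted p = 0.0353, where 0.214% of all genes were called), as did leaving out the non-TPC array of mouse 0107 (difference -2.12, limma adjusted p = 0.0348, 0.462% of all genes). Leaving out mouse 1127 gave a difference of -1.97 (95% interval -2.94 to -0.99, limma adjusted p = 0.9997), in a fit where 0 of all genes passed. Leaving out mouse 920 or mouse 0107 gave -1.89 and -1.91 (limma adjusted p = 0.427 and 0.0799).

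The Anxa2 difference rests on the bright probe set. The other probe sets of Anxa2 averaged 5.16 and 3.54, below the median level of all genes, and differed by -0.10 and 0.16, with mixed directions between mice. The mean of the 3 probe sets differed by -0.62 (limma adjusted p = 0.438). Processed pseudogenes of Anxa2 exist, and how far they share its probes was not tested.

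Anxa3, known as an inhibitor of phospholipase A2 and a protein of neutrophil granules and of several epithelia, had the largest difference among the 9 members. Its signal was 6.45, 8.29 and 6.92 in TPCs of mice 1127, 920 and 0107, against 10.13, 10.85 and 9.23 in non-TPCs. The groups did not overlap and lay 0.94 apart at their nearest arrays. Within mice it differed by -3.68, -2.57 and -2.31, a wider range than that of Anxa2. TPCs averaged 7.22 ± 0.95 and non-TPCs 10.07 ± 0.82 (SD, n = 3 each), a 7.21-fold lower signal in TPCs. The difference of -2.85 did not pass (SE 0.57, 95% interval -4.22 to -1.48, limma adjusted p = 0.292), nor did it under the replicate block (SE 0.29, limma adjusted p = 0.0731). Anxa3 was measured by 1 probe set, so no second one bears on it.

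Anxa1, a glucocorticoid-induced protein that dampens inflammation through formyl peptide receptors, gave a bright signal in both fractions. It stood at 13.00, 13.16 and 12.71 in TPCs of mice 1127, 920 and 0107, against 13.82, 13.91 and 13.14 in non-TPCs. TPCs were lower in each mouse, by -0.83, -0.75 and -0.43, but the groups overlapped by 0.03, since the TPCs of mouse 920 lay just above the non-TPCs of mouse 0107. The difference was -0.67 (SE 0.24, 95% interval -1.25 to -0.09, limma adjusted p = 0.699), and under the replicate block the limma adjusted p was 0.263. These signals lie near the top of the range of the table, whose highest value was 14.81. A second Anxa1 probe set, with a mean of 8.62, differed by -0.81 and -1.29 in mice 1127 and 920 and by 0.76 in mouse 0107.

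Anxa8, an annexin of some epithelia that has been tied to endosomes, was dim in TPCs and varied in non-TPCs. It read 5.46, 5.42 and 5.46 in TPCs of mice 1127, 920 and 0107, against 6.54, 7.12 and 5.48 in non-TPCs. The TPC arrays were nearly equal, and the non-TPCs of mouse 0107 lay 0.02 above the highest of them. The lack of overlap rests on that margin. The difference was -0.93 (SE 0.39, 95% interval -1.86 to -0.0036, limma adjusted p = 0.769), and it was -0.56 on leaving out the non-TPC array of mouse 920 and -0.55 with both arrays of that mouse left out. The second probe set differed by -0.57, -0.81 and 0.20 in mice 1127, 920 and 0107. Anxa9, whose core lacks functional calcium sites, was dim throughout, with 4.51, 4.96 and 5.06 in TPCs against 4.96, 5.18 and 5.22 in non-TPCs. It differed by -0.28 (95% interval -0.72 to 0.16, limma adjusted p = 0.878), and the groups overlapped by 0.10. On leaving out the TPC array of mouse 1127 the Anxa9 difference was -0.11.

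**Figure D2:**
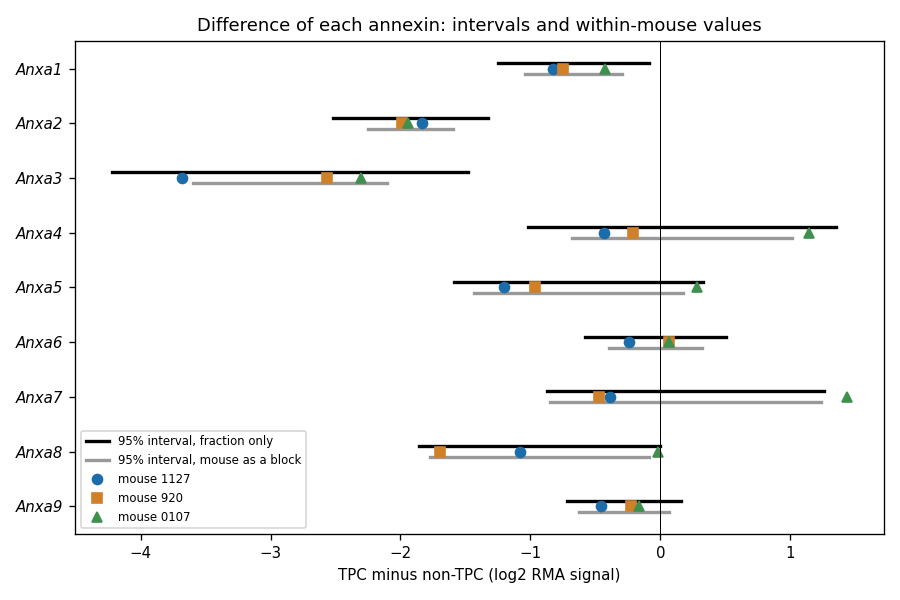
Difference between TPCs and non-TPCs (log2 RMA signal, horizontal axis) of each annexin within the 3 mice (coloured points), with 95% intervals from limma with the fraction as the only term (black) and with the mouse as a block (grey). The points of Anxa2 lie between -1.99 and -1.83, and those of Anxa7 between -0.47 and 1.44.

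Anxa4, Anxa5 and Anxa7 were above the all-gene median level in every array and shared a pattern in which mouse 0107 stood apart. Anxa5, whose tight binding to exposed phosphatidylserine is used to stain dying cells, was at 9.89, 9.74 and 9.74 in TPCs of mice 1127, 920 and 0107, against 11.09, 10.70 and 9.46 in non-TPCs. TPCs were lower in mice 1127 and 920, by -1.21 and -0.97, and higher in mouse 0107, by 0.29. The TPC arrays spanned 0.15 and the non-TPC arrays 1.63. Over the 3 mice Anxa5 differed by -0.63 (95% interval -1.59 to 0.33, limma adjusted p = 0.877). The difference was -1.11 on leaving out the non-TPC array of mouse 0107 and -0.29 on leaving out that of mouse 1127, and -1.08 and -0.34 with both arrays of the same mice left out.

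Anxa7, also called synexin and known for promoting the fusion of secretory granules of chromaffin cells, was at 9.18, 9.39 and 9.54 in TPCs of the same mice, against 9.57, 9.86 and 8.10 in non-TPCs. The non-TPCs of mouse 0107 were the lowest of the 6 arrays, and the differences were -0.39, -0.47 and 1.44. The 2 other probe sets of Anxa7 gave the same signs in each mouse. Anxa4, an annexin of secretory epithelia, was at 11.57, 11.90 and 11.39 in TPCs, against 12.00, 12.11 and 10.25 in non-TPCs. Its differences were -0.43, -0.21 and 1.15, and its other probe sets differed by 1.32 and 1.08 in mouse 0107 and by -0.02 to 0.24 in the other mice. The mean difference was 0.17 for Anxa4 (95% interval -1.02 to 1.35, limma adjusted p = 0.968) and 0.19 for Anxa7 (95% interval -0.87 to 1.26, limma adjusted p = 0.959). Leaving out the non-TPC array of mouse 0107, these became -0.43 and -0.35 (limma adjusted p = 0.470 and 0.510). By the brightest probe sets, the sign of both therefore rests on that array. A dimmer Anxa4 probe set, with a mean of 7.59, was higher in TPCs of all 3 mice, by 0.06, 0.14 and 1.08.

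Anxa6, the member built from a duplicated core and known in endocytosis and cholesterol handling, had the smallest difference by its brightest probe set. It was at 6.93, 7.09 and 6.58 in TPCs of mice 1127, 920 and 0107, against 7.17, 7.03 and 6.51 in non-TPCs. The groups overlapped widely and the difference was -0.04 (95% interval -0.58 to 0.51, limma adjusted p = 0.984), turning to 0.024 with each array centred on its median. By the mean of all probe sets it was -0.08, and Anxa7 then had the smaller difference, 0.027. A second Anxa6 probe set, with a mean of 6.53, was lower in TPCs of all 3 mice by -0.42, -0.56 and -0.09. The 95% intervals of 2 members, Anxa6 and Anxa9, lay wholly between -1 and 1. For Anxa4, Anxa5 and Anxa7 the intervals reach beyond a 2-fold difference, so the missed threshold does not show equal levels.

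The non-TPC array of mouse 0107 was the lowest of the 3 non-TPC arrays for 8 of 9 annexins, Anxa9 being the exception, whereas it was the lowest for 32.7% of all genes. It lay at least 1 below the mean of the other non-TPC arrays for 5 annexins, Anxa3, Anxa4, Anxa5, Anxa7 and Anxa8, by -1.27, -1.81, -1.44, -1.61 and -1.35, and for 6.85% of all genes. The TPC array of mouse 0107 lay that far below its group for 0 of 9 annexins and 0.907% of all genes. Accordingly 9 and 8 of the 9 members were lower in TPCs of mice 1127 and 920, and 5 of 9 in mouse 0107, where 40.7%, 42.1% and 53.6% of all genes were lower. With 1 pair of arrays per mouse, the difference between mice could not be tested.

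Cell type markers also differed in that array. The mean of 4 mesothelial markers was 5.98 in the non-TPCs of mouse 0107, against 7.06 and 7.00 in those of mice 1127 and 920. For 4 club cell markers it was 10.51 against 12.04 and 12.40. The TPC array of mouse 0107 was also the lowest of its fraction for them, at 9.26 against 10.02 and 10.46. For 6 endothelial markers the non-TPC array of mouse 0107 was the highest, at 6.17 against 5.54 and 4.89. For 5 alveolar type 2 markers it was 9.23 against 9.23 and 9.49, which is no lower than in mouse 1127. General leukocyte markers were lowest in that array, at 7.62 against 8.48 and 8.47, as were fibroblast markers, at 7.00 against 9.33 and 7.27. So were alveolar type 1 and macrophage markers, at 7.26 and 7.04. The mean of 6 neuroendocrine markers was lowest there too, at 9.99 against 10.36 and 10.27. Neutrophil and T and NK cell markers were not lowest there, at 7.54 and 5.45. Ciliated and B cell markers were highest there, at 5.08 and 5.81. The part of these cells in the annexin values was not tested.

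**Figure D3:**
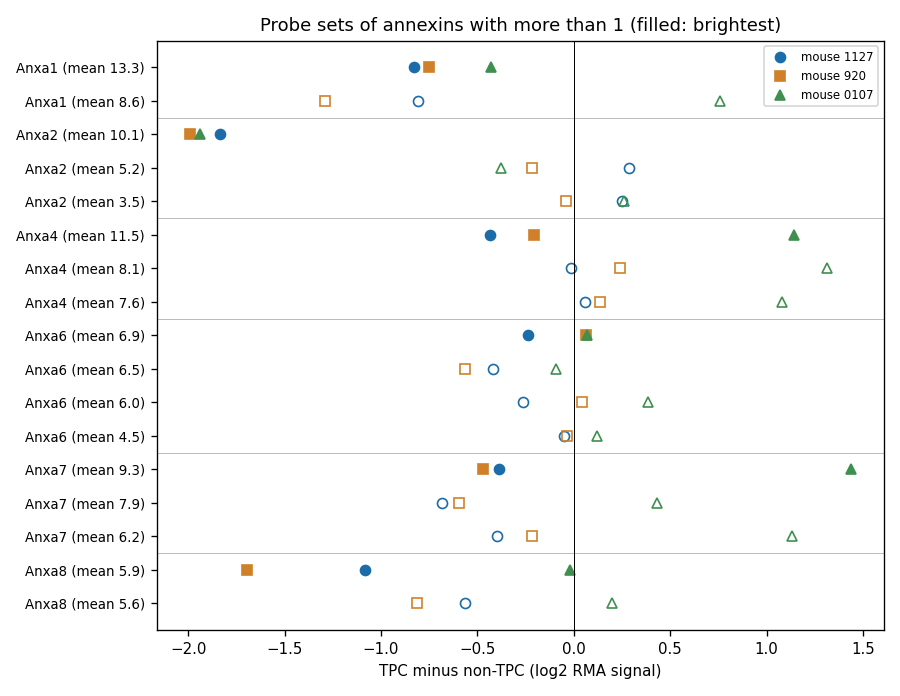
Within-mouse differences between TPCs and non-TPCs (log2 RMA signal, horizontal axis) for every probe set of the 6 annexins with more than 1, each row labelled with its mean signal over the 6 arrays and filled points marking the brightest probe set. All 3 probe sets of Anxa7 and of Anxa4 place mouse 0107 (triangles) above 0, while the dim probe sets of Anxa2 lie between -0.38 and 0.29.

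The genes listed as annexin partners were more often lower than higher in TPCs. The list was chosen with earlier results of these data known, so its counts beside all genes are a description. Of 29 listed genes, 25 were measured. Plscr2, a phospholipid scramblase family member, was the 1 that fell with fraction as the single term (difference -1.85, limma adjusted p = 0.0481). It did not pass under the replicate block (limma adjusted p = 0.0770), where 0 of 25 passed. Plscr2 was dim, below the all-gene median level of 6.91 in every array. It was at 3.09, 3.39 and 3.43 in TPCs of mice 1127, 920 and 0107, against 5.38, 5.23 and 4.86 in non-TPCs. The median difference of the 25 was -0.26. TPCs were lower in 3 of 3 mice for 13 of 25 and higher in 3 of 3 for 1, the calcium-binding protein gene Pef1, whose difference was 0.37, beside 13.8% and 19.7% of all genes. All TPC arrays lay below all non-TPC arrays for 9 of 25, and for 5.91% of all genes.

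All 3 measured S100 genes followed the direction of Anxa2, and the fourth listed, S100a11, was not analysed here. S100a10, whose product pairs with annexin A2, was at 10.04, 9.58 and 10.12 in TPCs of mice 1127, 920 and 0107, against 11.51, 11.13 and 11.77 in non-TPCs. The groups did not overlap. It differed by -1.56 (SE 0.22, limma adjusted p = 0.128), with an adjusted p of 0.0534 under the replicate block and 0.0398 under the random block. Within mice S100a10 and Anxa2 differed by like amounts, -1.47, -1.56 and -1.66 for S100a10 and -1.83, -1.99 and -1.94 for Anxa2. S100a6, a small calcium-binding protein, differed by -2.44 (limma adjusted p = 0.164) and S100a4, a protein of motile and mesenchymal cells, by -1.28 (0.550), and in both the fractions lay apart.

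A receptor and an enzyme linked to annexin A1 had lower values in TPCs of every mouse and did not pass the test. Fpr2, the formyl peptide receptor through which annexin A1 acts, was at 6.09, 7.09 and 6.04 in TPCs of mice 1127, 920 and 0107, against 8.33, 8.41 and 6.94 in non-TPCs. It was lower in TPCs of each mouse and overlapped between groups, with a difference of -1.49 (limma adjusted p = 0.622). Pla2g4a, the cytosolic phospholipase A2 that annexins are known to restrain, was at 5.07, 5.61 and 4.55 in TPCs, against 7.33, 7.39 and 5.73 in non-TPCs, and differed by -1.74 (limma adjusted p = 0.557).

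In plasminogen activation, Plat, the tissue-type activator that binds the annexin A2 complex, was at 4.94, 5.25 and 4.76 in TPCs of mice 1127, 920 and 0107, against 8.69, 6.41 and 7.61 in non-TPCs. The groups lay apart, and the difference was -2.58 (limma adjusted p = 0.335). Plau, the urokinase gene, and Plg, plasminogen itself, were dim in both fractions and differed by 0.11 and 0.05. Plaur, the urokinase receptor, differed by -0.19 and Plgrkt, a plasminogen receptor, by -0.24.

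Among membrane repair genes, Ahnak, a giant scaffold protein that binds the annexin A2 and S100A10 complex, was at 6.82, 7.64 and 6.38 in TPCs, against 8.63, 9.19 and 8.06 in non-TPCs. It lay lower in every TPC array and differed by -1.68 (limma adjusted p = 0.424, and 0.0510 under the replicate block). Myof, a ferlin related to dysferlin, differed by -0.43, Cav3 by 0.23, and Dysf and Trim72, known for membrane repair in muscle, by -0.08 and -0.09. The 4 penta-EF-hand genes, of a family in which some products bind annexins A7 and A11, were all above the all-gene median level. Their median difference was 0.13. Pef1 differed by 0.37, Pdcd6, whose product ALG-2 binds calcium, by 0.09 and Gca, the gene of grancalcin, by 0.17. Sri, the gene of sorcin and a partner of annexin A7, differed by -0.49, -0.52 and 0.59 in mice 1127, 920 and 0107. Those are the signs of Anxa7, but also of Anxa4, Anxa5, Plgrkt and Plscr1. The share of all genes with these signs was not counted. Of the 6 genes for phosphatidylserine exposure, 3 were lower in TPCs of 3 of 3 mice, as were 13.8% of all genes. They were Plscr2, Plscr3 and Ano6. Beside Plscr2, the scramblase family genes Plscr1 and Plscr3 differed by -0.47 and -0.38 without passing the test. Plscr1 was higher in TPCs of mouse 0107, by 0.03.

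**Figure D4:**
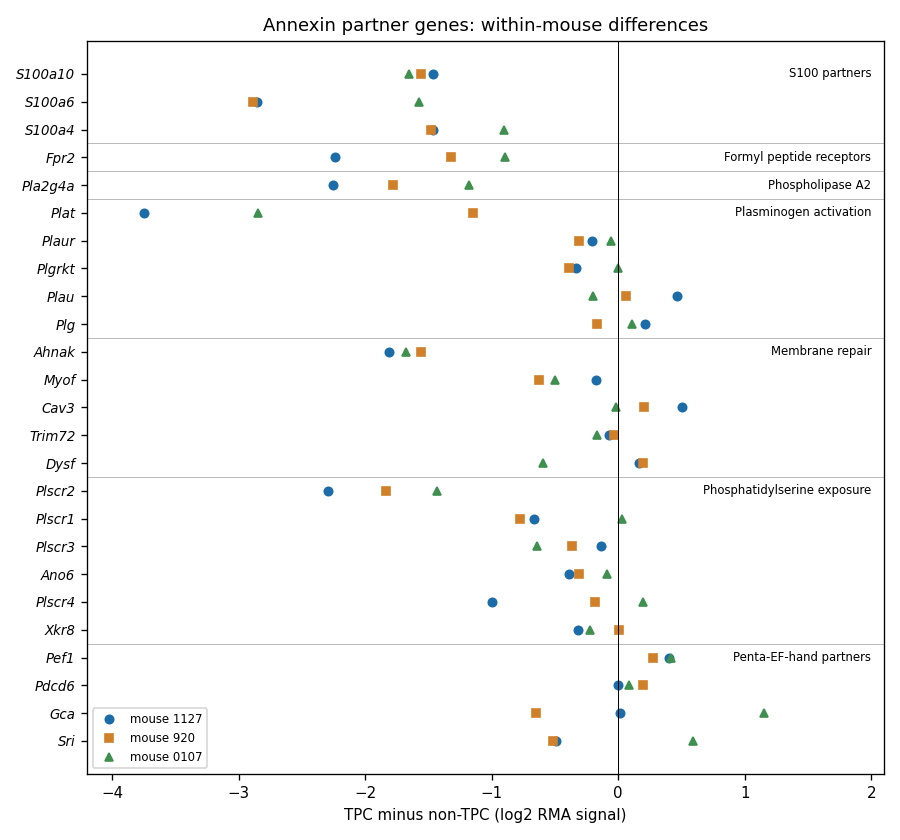
Within-mouse differences between TPCs and non-TPCs (log2 RMA signal, horizontal axis) of 25 annexin partner genes, grouped by role, with 1 point per mouse. The points of S100a10, S100a6, S100a4, Plat, Ahnak and Plscr2 lie left of 0 in every mouse, and those of the penta-EF-hand genes lie on both sides.

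The genes nearest to Anxa2 and Anxa3, the members with the smallest unadjusted p, were sought among 9095 genes above the median level by the largest gap, over the 3 mice, between their within-mouse differences and those of the annexin. For Anxa2 they were the neutrophil chemokine gene Cxcl2, with a largest gap of 0.26, then Fmo2, a flavin-containing monooxygenase of lung, at 0.37, the glutathione transferase gene Mgst1 at 0.37, the actin-associated Rai14 at 0.39 and the fatty acid binding protein gene Fabp4 at 0.43. For Anxa3 they were Ackr3, a scavenging chemokine receptor, at 0.17, the cytochrome gene Cyp1b1 at 0.35, the monocyte surface gene Cd14 at 0.50, Trim30a at 0.51 and the connexin gene Gja1 at 0.55. Mean differences of these genes ran from -2.14 to -1.80 for the Anxa2 set and from -2.92 to -2.42 for the Anxa3 set. The likeness rests on 3 mice and is a description.

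Of the annexins outside the list, Anxa10 was at 7.75, 7.60 and 6.93 in TPCs of mice 1127, 920 and 0107, against 8.79, 7.05 and 5.81 in non-TPCs, so its direction changed between mice (difference 0.21, limma adjusted p = 0.971). Anxa13, an annexin of intestine and kidney, was dim in every array, between 3.89 and 4.50.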

How the data were processed

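RNA of 6 sorted samples was measured on 1-colour arrays, per the labels' protocols. The authors used RMA, per the submitters' processing notes, and the deposited signals are on a log2 scale as read from their range, 2.70 to 14.81. RMA quantile normalises arrays, so differences are relative to the other genes. The RMA version was not given in the sources used here. Precision is limited by 3 arrays per fraction.

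The table held 45101 probe sets, 64 of them controls. Of the rest, 34945 had 1 symbol, 932 several and 9160 none. Symbols were updated through Entrez identifiers with RefSeq (GRCm38.p6). The brightest probe set by mean stood for a gene, which gave 18193 genes. Limma 3.58.1 (R 4.3.3; lmFit, eBayes, two-sided) was fitted over all genes with fraction as its single term and Benjamini-Hochberg adjustment at 0.05. It was tested on simulated data. Intervals are 95%.

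The mouse number pairs the samples because both fractions come from 1 animal. Deviations from fraction means correlated at 0.30, 0.46 and 0.36 within mice 1127, 920 and 0107 and at most -0.08 between mice. Such deviations sum to 0 over the mice, so positive values within mice bring negative ones between mice. The values between mice are therefore no separate evidence of pairing. Adding the mouse as a block left 2 residual degrees of freedom, against 4. Alternatives were a random block, a filter on dim genes, other probe set rules, median centring and leaving out mice or arrays. The members, partner genes and markers were chosen with earlier results of these data known. All measured members are named, as are partners past the threshold, up to 3 per group by p, and 5 like genes for each of 2 members. Plau, Plg, Dysf, Trim72, Sri, Ano6 and the annexins outside the list were named after their values were seen. RefSeq promoter windows were matched by symbol.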

Additional observations from a re-analysis of the deposited data

How the results depend on the processing

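The count of annexins past the threshold was 0 with the fraction as the only term, 1 with the mouse as a replicate block, 1 with the mouse as a random block, and 0 to 1 when a mouse or a single array was left out, the 1 being Anxa2 on leaving out the non-TPC array of mouse 0107. It was 0 with genes above the median level, the mean of all probe sets, every probe set tested or arrays centred on their median. The count of partner genes, 1 at first, was 0 with the replicate block, genes above the median level, the mean of all probe sets or every probe set tested, 2 with the random block (Plscr2 and S100a10), and 0 to 1 with a mouse or array left out. Over all genes 11 passed, 13 with the replicate block, 39 with the random block, 4 with the mean of all probe sets and 0 to 84 with a mouse or array left out. The replicate block changed the calls of Anxa2 and Plscr2 and of no other annexin or partner gene. Anxa1, Anxa2, Anxa3, Anxa5, Anxa8 and Anxa9 kept their sign in every alternative that gave a value. The fit to every probe set was read at the brightest probe set of each member, where the sign could not change. A dim probe set of Anxa2 differed by 0.16. With a mouse or array left out, Anxa4 ranged from -0.43 to 0.50, Anxa6 from -0.23 to 0.11 and Anxa7 from -0.43 to 0.54, and Anxa6 was 0.024 with arrays centred on their median. Leaving out mouse 0107 gave -0.32 for Anxa4 and -0.43 for Anxa7, and leaving out only its non-TPC array gave -0.43 and -0.35. For Anxa6 the value was 0.066 when mouse 1127 was left out, 0.099 when only its non-TPC array was, 0.11 for the TPC array of mouse 0107 and 0.027 for the non-TPC array of mouse 920. The filter on dim genes removed Anxa6, Anxa8 and Anxa9. Leaving out single arrays breaks a pair, so those fits mix mouse with fraction, and the cause of these changes was not tested.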
